A study of Mus musculus with 8 samples.

Results

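The myosin heavy chain genes described here were the 9 rows of the deposited expression table named Myh1, Myh2, Myh3, Myh4, Myh6, Myh7, Myh7b, Myh8 and Myh14, out of 47643 genes in the table. They were chosen by name from the adult fast, slow, embryonic and perinatal myosin heavy chains. Poly(A) RNA of snap-frozen quadriceps (quad) muscle was sequenced in 8 libraries, 1 per mouse, of which 4 were labelled Nup210-/- and 4 Nup210+/+. All mice were labelled C57BL/6, and the age and sex of these animals were not given in the sources used here. Nup210 encodes a transmembrane nucleoporin. In the Nup210-/- line a loxP-flanked exon, the second of the gene, was removed in the whole animal by crossing to Hprt-Cre mice, so the deletion was not limited to muscle fibers. The comparison addresses whether the amount and the mix of myosin heavy chain transcripts differed in quad muscle without Nup210.

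Myosin heavy chain is the motor of the thick filament. Its head binds actin and splits ATP, and its coiled-coil tail packs into the filament. Which isoform a fiber makes sets how fast it shortens and gives the fiber types their names. In adult mouse limb muscle Myh7 encodes the slow type I chain, Myh2 the fast type IIa chain, Myh1 the fast type IIx chain and Myh4 the fastest, type IIb. Myh3 and Myh8 encode the embryonic and perinatal chains of developing and regenerating fibers, Myh6 the alpha chain of the heart, and Myh7b an ancient slow-tonic relative. Myh14 stands outside the group as labelled, because it encodes a nonmuscle class II myosin that builds no sarcomere. It is therefore left out of the sums over 8 sarcomeric members below.

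Values are TPM, in which each estimate is divided by transcript length and each library sums to 1000000, so that levels can be compared between genes. Nup210 itself was at 8.81 to 11.9 TPM in the libraries labelled Nup210-/- and at 5.71 to 10.1 TPM in those labelled Nup210+/+. A gene-wide estimate draws on many exons outside the deleted one, so this value does not check the labels, and it was not lower in the libraries labelled Nup210-/-. The tissue label was checked against 5 skeletal muscle markers (Acta1, Ckm, Des, Mb and Ttn), which summed to between 42796 and 49231 TPM in every library. Heart markers (Nppa, Myl7, Tnni3 and Ryr2) summed to at most 0.69 TPM, with Myl7 at 0 throughout. The sum of the leukocyte markers (Ptprc, Cd68, Lyz2, Itgam and Cd3e) was lower in the libraries labelled Nup210-/-, at 100.3 to 115.0 TPM against 124.4 to 249.9 TPM. Most of that sum was Lyz2, at 92.5 to 105 TPM against 116.7 to 232.7 TPM. Ptprc and Itgam did not overlap between the genotypes either, while Cd68 and Cd3e did. Only 1 library, Nup210+/+ replicate 2, held 355.4 TPM of granulocyte precursor markers, which summed to 2.12 TPM or less elsewhere. In bulk tissue, fewer cells of a type and less RNA per cell cannot be told apart.

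The 5 fast and developmental genes sit head to tail in a single cluster on the plus strand of chromosome 11 (coordinates from GENCODE M21 on GRCm38). Myh3 (ENSMUSG00000020908) spans chr11:67078300-67102291, Myh2 (ENSMUSG00000033196) chr11:67171027-67197517 and Myh1 (ENSMUSG00000056328) chr11:67200052-67224575. Myh4 (ENSMUSG00000057003) follows at chr11:67238029-67260446 and Myh8 (ENSMUSG00000055775) at chr11:67277124-67308634. The slow and cardiac pair lies on the minus strand of chromosome 14, with Myh6 (ENSMUSG00000040752) at chr14:54941921-54966927 and Myh7 (ENSMUSG00000053093) at chr14:54970684-54994626. Myh7b (ENSMUSG00000074652) is at chr2:155611212-155634307 on the plus strand, and Myh14 (ENSMUSG00000030739) at chr7:44605803-44670843 on the minus strand. Exons of Myh3, Myh4 and Myh8 overlap no other gene, while those of the other 6 members overlap a gene on the opposite strand. The libraries were directional, but the strand setting of the quantification was not given in the sources used here, so reads of those antisense partners cannot be told apart from reads of the members.

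The members are close copies of each other, and a read can belong to more than 1 of them. Coding sequences of Myh1 and Myh2 were 91.1% identical, those of Myh1 and Myh4 90.2%, and those of Myh6 and Myh7 91.7%. Myh14 shared 58.7% to 60.1% with the others. The longest run that Myh1 and Myh2 share without a mismatch is 268 bases, in exons at chr11:67213219-67213451 and chr11:67213563-67213597 in Myh1 and at chr11:67188318-67188550 and chr11:67188662-67188696 in Myh2 (GRCm38, plus strand). It is shown because no read inside it can say which of these genes it came from, and it has no capitals since every base is shared.
Myh1 and Myh2: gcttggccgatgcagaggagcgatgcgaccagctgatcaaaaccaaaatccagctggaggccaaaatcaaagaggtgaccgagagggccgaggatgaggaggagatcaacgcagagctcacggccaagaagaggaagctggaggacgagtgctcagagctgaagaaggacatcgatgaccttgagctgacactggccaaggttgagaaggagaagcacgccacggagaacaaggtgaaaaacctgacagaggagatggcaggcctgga
The corresponding run of Myh6 and Myh7 is 245 bases, at chr14:54948612-54948725 and chr14:54948327-54948457 in Myh6 and at chr14:54975234-54975347 and chr14:54974947-54975077 in Myh7 (GRCm38, minus strand).
Myh6 and Myh7: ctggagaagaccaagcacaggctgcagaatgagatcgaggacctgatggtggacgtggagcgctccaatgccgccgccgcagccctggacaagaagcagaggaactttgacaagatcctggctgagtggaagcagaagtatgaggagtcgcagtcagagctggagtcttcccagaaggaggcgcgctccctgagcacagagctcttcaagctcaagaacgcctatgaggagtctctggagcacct
Over whole transcripts, 16.6% of the 75-base windows of Myh1 also occurred in another myosin heavy chain transcript, as did 16.3% of those of Myh2, 15.5% of Myh6, 15.3% of Myh7, 12.9% of Myh8 and 9.68% of Myh4. Only 1.86% of Myh3 windows and 0 windows of Myh7b and Myh14 were shared. The window length is that of the reads. Reads in shared windows are divided among genes by the estimation model, so a low member beside a high copy, such as Myh8 beside Myh4 or Myh6 beside Myh7, carries the larger uncertainty.

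RefSeq promoters (250 bases before to 50 after the start, GRCm38.p6) were found for all 9 members, with 10 entries because Myh7 had 2. They were searched on both strands for the MEF2 motif, the binding sequence of the Mef2 factors, which regulate muscle genes. It occurred in the promoters of 3 members, Myh1, Myh4 and Myh8, against 3.19% of 32851 promoters. The 3 matches are the same 10 letters, each preceded by the same 5 bases. For Myh2, the 40 bases of its promoter most like the Myh1 window were taken. At the place of the match they differ by T5C and T6C, counted from 1 at the first capital of the Myh1 line. The lines below show 40 bases for each gene, with the match in capitals and, for Myh2, the letters at the same place.
Myh1 (chr11:67199876-67199915, plus strand): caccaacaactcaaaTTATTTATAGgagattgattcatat
Myh4 (chr11:67237615-67237654, plus strand): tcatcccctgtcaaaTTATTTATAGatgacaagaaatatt
Myh8 (chr11:67277010-67277049, plus strand): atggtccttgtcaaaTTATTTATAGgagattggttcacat
Myh2 (chr11:67170844-67170883, plus strand): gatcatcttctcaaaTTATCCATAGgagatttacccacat
The first capital lies at -211 from the RefSeq start in Myh1, at -182 in Myh4, at -99 in Myh8 and at -168 in Myh2. Outside the capitals the resemblance is unequal: the window of Myh8 and that of Myh2 each equal the Myh1 window at 29 of 40 bases, and that of Myh4 at 19. The Myh2 window was picked for the most equal bases, while those of Myh4 and Myh8 were set by their matches. Its count is thus not comparable with theirs. Each of the 3 matches also holds TATAAA on the opposite strand, so the motifs overlap. Because Myh4 was the highest member, its promoter is given further, at chr11:67237574-67237811 (GRCm38.p6, plus strand, 238 bases), with capitals for matches to the TATA box (TATAAA, in 13.6% of promoters), the E-box (CANNTG, in 72.3%), MCAT (CATTCC, in 14.7%), MEF2 and CArG (in 1.63%).
Myh4: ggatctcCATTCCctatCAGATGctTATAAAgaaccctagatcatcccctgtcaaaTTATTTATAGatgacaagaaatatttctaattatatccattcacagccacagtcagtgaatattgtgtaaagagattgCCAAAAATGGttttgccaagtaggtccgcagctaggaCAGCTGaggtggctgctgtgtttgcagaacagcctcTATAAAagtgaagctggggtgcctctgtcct
These matches are letters in a window and were not tested as binding sites.

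The 4 adult isoforms made up nearly all of the sarcomeric myosin heavy chain RNA, and type IIb led in every library. Myh4 was at 9031, 9135, 9582 and 9202 TPM in the libraries labelled Nup210-/- (replicates 1 to 4) and at 7989, 7218, 7918 and 9090 TPM in those labelled Nup210+/+. It ranked between place 23 and place 27 of all genes in each library. Its mean over the 8 libraries was 7.04 times that of Myh1, which in turn was 2.07 times that of Myh2, and Myh2 was 6.05 times Myh7. The order Myh4, Myh1, Myh2, Myh7, Myh14, Myh8 held in 8 of 8 libraries, and the ranges of neighbours did not touch. Below that the order was loose. Myh8 exceeded Myh7b in 5 of 8 libraries, Myh7b exceeded Myh3 in 8 of 8 although their ranges overlapped, and Myh3 exceeded Myh6 in 7 of 8.

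**Figure D1:**
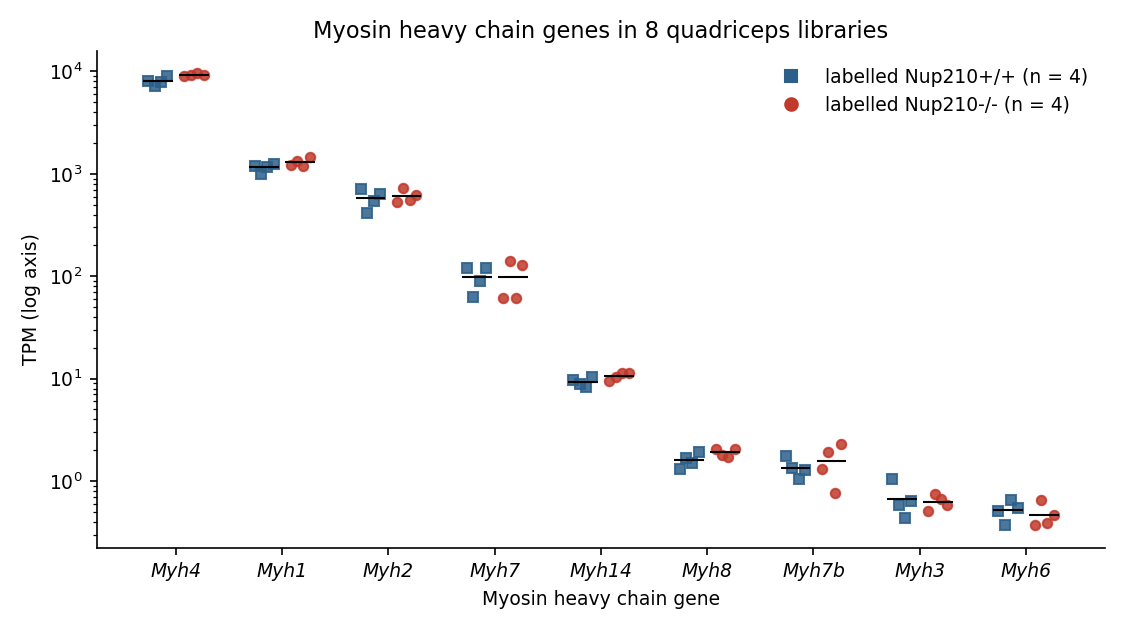
TPM of the 9 myosin heavy chain genes (log axis) in 4 libraries labelled Nup210+/+ (squares) and 4 labelled Nup210-/- (circles), with the mean of each genotype as a line. Levels fall from 7218 TPM or more for Myh4 to at most 0.66 TPM for Myh6, and the genotypes overlap for every gene.

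Between the genotypes, Myh4 was the member with the largest estimated difference. All 4 libraries labelled Nup210-/- lay within 9031 to 9582 TPM, while those labelled Nup210+/+ spread from 7218 to 9090 TPM. The genotypes overlapped through Nup210+/+ replicate 4 alone, which was above the lowest library labelled Nup210-/-. The means were 9237 ± 240.3 TPM and 8054 ± 773.5 TPM (SD, n = 4 each). On TPM scaled by the median of ratios between libraries, the log2 fold change was 0.30 (SE 0.107, 95% interval 0.06 to 0.54, limma adjusted p = 0.264), which did not pass the threshold of 0.05. The two-sided exact permutation test on scaled TPM gave p = 0.0571, where 0.0286 is the smallest it can give. Without Nup210+/+ replicate 4 the estimate was 0.39 with an adjusted p of 0.0704 in limma. It was 0.25 without Nup210+/+ replicate 2, 0.25 without Nup210+/+ replicate 3 and 0.15 without both. With scaling to the skeletal muscle markers it was 0.11.

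Myh1, the type IIx gene, was at 1209, 1335, 1199 and 1461 TPM in the libraries labelled Nup210-/- and at 1205, 997.7, 1155 and 1260 TPM in those labelled Nup210+/+. The highest value belonged to Nup210-/- replicate 4 and the lowest to Nup210+/+ replicate 2, with the other libraries interleaved. Its log2 fold change was 0.27 (SE 0.116, 95% interval 0.01 to 0.53, limma adjusted p = 0.343). The estimate was 0.35 without Nup210+/+ replicate 4 and 0.11 without Nup210+/+ replicates 2 and 3. With scaling to the skeletal muscle markers it was 0.09.

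Myh2, the type IIa gene, was at 526.8, 728.9, 558.3 and 625.2 TPM in the libraries labelled Nup210-/- and at 705.4, 413.2, 546.1 and 639.3 TPM in those labelled Nup210+/+. Both genotypes covered most of the same range, and Nup210+/+ replicate 2 was again the lowest. The log2 fold change was 0.19 (SE 0.180, 95% interval -0.21 to 0.60, limma adjusted p = 0.647), and it was 0.04 without Nup210+/+ replicate 2, 0.30 without Nup210+/+ replicate 1 and -0.11 without Nup210+/+ replicates 2 and 3.

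Myh7, the slow type I gene, varied the most among the adult isoforms, with a coefficient of variation of 33.7% over the 8 libraries against 9.55% for Myh4. It was at 60.7, 139.5, 61.6 and 127.6 TPM in the libraries labelled Nup210-/-. The libraries labelled Nup210+/+ were at 121.0, 62.8, 90.1 and 120.5 TPM. Low and high libraries thus occurred in both genotypes, with a 2.3-fold span between the lowest and the highest. The log2 fold change was 0.02 (SE 0.335, 95% interval -0.74 to 0.78, limma adjusted p = 0.986). That interval spans folds from 0.599 to 1.71, so a change of either sign within it is compatible with these values. It is not adjusted and is no limit of detection, because the call used an adjusted p over all genes tested. Its sign was not stable: it was -0.08 on TPM as deposited and -0.16 with scaling to the skeletal muscle markers.

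Genes of developing and regenerating fibers were near the bottom of the range. Myh8, the perinatal chain, was at 2.06, 1.79, 1.70 and 2.07 TPM in the libraries labelled Nup210-/- and at 1.32, 1.69, 1.5 and 1.91 TPM in those labelled Nup210+/+, with overlap between the genotypes. Its log2 fold change was 0.22 (SE 0.130, 95% interval -0.07 to 0.51, limma adjusted p = 0.468). Myh3, the embryonic chain, was at 0.51, 0.74, 0.67 and 0.58 TPM in the libraries labelled Nup210-/- and at 1.04, 0.58, 0.44 and 0.64 TPM in those labelled Nup210+/+. The highest and the lowest value of Myh3 both came from libraries labelled Nup210+/+, and its log2 fold change was 0.00 (SE 0.153, 95% interval -0.35 to 0.35, limma adjusted p = 0.998). Together these genes gave 0.020% to 0.026% of the sarcomeric myosin heavy chain TPM.

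Myh6, Myh7b and Myh14 complete the set. Myh7b was at 1.31, 1.90, 0.77 and 2.29 TPM in the libraries labelled Nup210-/- and at 1.76, 1.35, 1.04 and 1.27 TPM in those labelled Nup210+/+, with a log2 fold change of 0.15 (SE 0.213, 95% interval -0.33 to 0.63, limma adjusted p = 0.780). The libraries labelled Nup210-/- held both its highest and its lowest value, and the estimate was 0.0052 without Nup210-/- replicate 4 and 0.33 without Nup210-/- replicate 3. Myh6 was at 0.37, 0.65, 0.39 and 0.47 TPM in the libraries labelled Nup210-/- and at 0.51, 0.37, 0.66 and 0.55 TPM in those labelled Nup210+/+. Its mean was below the minimum of 0.5 TPM for the limma fit, and the two-sided exact permutation test on scaled TPM gave p = 0.83. The nonmuscle gene Myh14 was at 9.46, 10.4, 11.5 and 11.3 TPM in the libraries labelled Nup210-/- and at 9.62, 8.96, 8.36 and 10.4 TPM in those labelled Nup210+/+. Its 2 highest values were in libraries labelled Nup210-/- and its 2 lowest in libraries labelled Nup210+/+, with overlap between, and its log2 fold change was 0.26 (SE 0.112, 95% interval 0.01 to 0.51, limma adjusted p = 0.337).

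**Figure D2:**
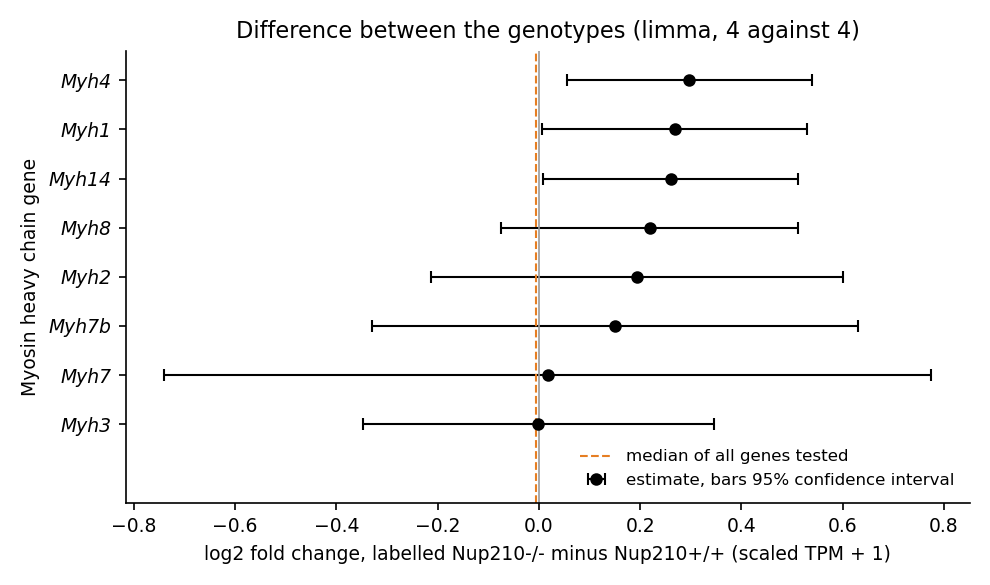
Log2 fold change of the 8 members tested, libraries labelled Nup210-/- minus Nup210+/+, on scaled TPM plus 1 (points, limma estimates; bars, 95% confidence intervals), with the median of all 14229 genes tested at -0.01 as a dashed line. The intervals of Myh4, Myh1 and Myh14 lie just above 0, and the widest interval is that of Myh7.

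Counted over the family, 8 of 9 members passed the filter on mean TPM and 0 of these 8 passed an adjusted p of 0.05 in limma, where 0.112% of the 14229 genes tested did. At an unadjusted p under 0.05 in limma there were 3 members (Myh4, Myh14 and Myh1), against 14.2% of all genes tested in either direction and 7.00% in the direction of higher values in the libraries labelled Nup210-/-. That number ran from 0 to 4 over the alternatives, with 0 without Nup210-/- replicate 4, 0 without Nup210+/+ replicate 2 and 4 without Nup210+/+ replicate 4. The genotypes overlapped for all 9 members on scaled TPM, while they did not overlap for 9.38% of the genes tested. Without Nup210+/+ replicate 4, which had the lowest leukocyte marker sum of its genotype, 4 members (Myh1, Myh4, Myh8 and Myh14) did not overlap, where 18.4% of the genes tested did not. Without Nup210-/- replicate 2 this held for 1 member, Myh4, where 14.1% of the genes tested did not overlap. The estimates were above 0 for 7 of 8 members, with a median of 0.21 on the log2 scale, against a median of -0.01 over all genes tested. With scaling to the skeletal muscle markers, which moved the median of all genes to -0.16, 6 of 8 estimates were above 0, their median was 0.07, and Myh4 was at 0.11, which is 0.27 above the median of all genes (limma adjusted p = 0.397). Leaving out Nup210+/+ replicates 2 and 3, the libraries with the highest leukocyte sums, gave 0.15 for Myh4 (limma adjusted p = 0.608). In that fit 5 of 8 members had estimates above 0, with a median of 0.07 against 0.003 over all genes. The part of the leukocyte and granulocyte RNA in these values was not tested.

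The mix of isoforms did not differ between the genotypes beyond the spread of the libraries. The 8 sarcomeric members summed to 10832 to 11421 TPM in the libraries labelled Nup210-/- and to 8696 to 11114 TPM in those labelled Nup210+/+. Of that sum, Myh4 took 83.4%, 80.5%, 84% and 80.6% in the libraries labelled Nup210-/- and 79.7%, 83.0%, 81.5% and 81.8% in those labelled Nup210+/+. The lowest share was in a library labelled Nup210+/+ and the highest in one labelled Nup210-/-, with wide overlap between. The mean share of Myh4 was 82.1% ± 1.84 against 81.5% ± 1.37 (SD, n = 4 each; two-sided exact permutation p = 0.629). Myh1 took 11.6% ± 0.969 against 11.7% ± 0.327 (exact permutation p = 0.8) and Myh2 5.42% ± 0.730 against 5.79% ± 0.942 (exact permutation p = 0.514). The slow share ran from 0.540% to 1.23% over the libraries. Myh7 took 0.862% ± 0.363 in the libraries labelled Nup210-/- and 0.985% ± 0.209 in those labelled Nup210+/+ (exact permutation p = 0.629). A p that misses the threshold does not show that the shares were equal, and with 4 against 4 libraries the test could not go below 0.0286.

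**Figure D3:**
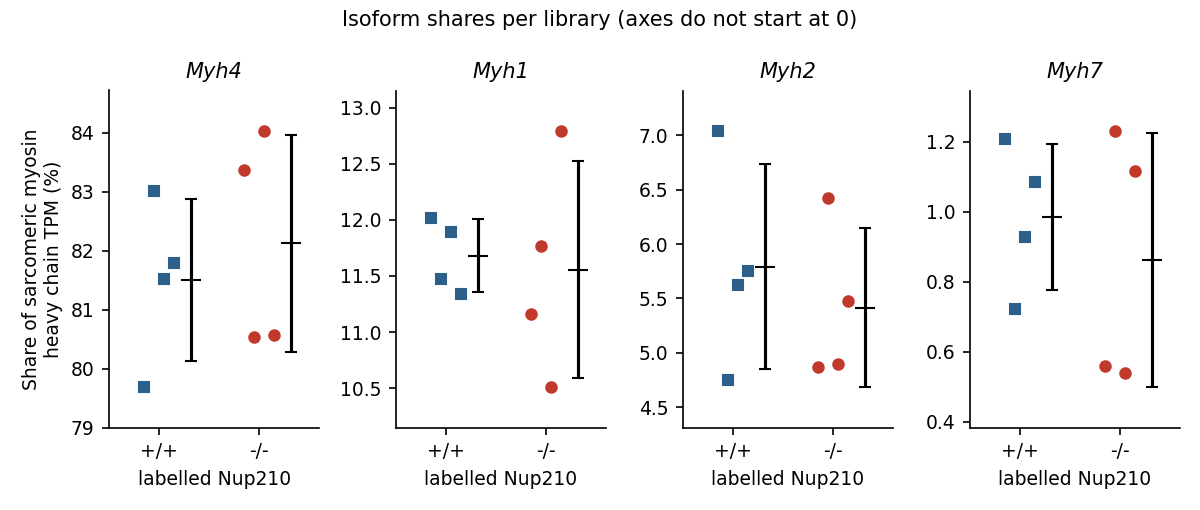
Share of Myh4, Myh1, Myh2 and Myh7 in the summed TPM of the 8 sarcomeric myosin heavy chain genes, in percent, for each library by genotype (points) with mean and SD (bars, n = 4 each; axes do not start at 0). The genotypes overlap in every panel, with Myh4 between 79.7% and 84% and Myh7 between 0.540% and 1.23%.

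Across the 8 libraries, 3 pairs of adult genes of neighbouring fiber types passed the threshold by Pearson's r. Values are log2(scaled TPM + 1), 9 pairs were computed, p-values are two-sided exact permutation values adjusted over the 9 pairs, and both genotypes are pooled. Myh4 and Myh1 gave Pearson's r = 0.88 (adjusted exact p = 0.0098) and Spearman's rho = 0.79 (adjusted exact p = 0.0628), with r = 0.60 once the 2 libraries farthest from the median of Myh4 were left out. Without Nup210+/+ replicate 2 the adjusted exact p was 0.102. Myh2 and Myh7, the oxidative fast and the slow gene, gave r = 0.84 (adjusted exact p = 0.0432) and rho = 0.83 (adjusted exact p = 0.0628), and r = 0.96 without the 2 libraries farthest from the median of Myh2. Myh1 and Myh2 gave r = 0.81 (adjusted exact p = 0.0432) and rho = 0.67 (adjusted exact p = 0.125), with r = 0.74 without the farthest 2. Each of these 3 calls was lost on TPM as deposited (adjusted exact p = 0.0542 to 0.0828). That of Myh1 and Myh2 was also lost without any one of Nup210-/- replicates 1, 2 and 3 and Nup210+/+ replicates 2, 3 and 4 (adjusted exact p = 0.0565 to 0.173), and that of Myh2 and Myh7 without any one of Nup210-/- replicates 1, 2 and 4 and Nup210+/+ replicates 1, 2 and 4 (adjusted exact p = 0.0509 to 0.113). The ends of the series did not pass: Myh4 and Myh7 gave r = 0.33 (adjusted exact p = 0.426) and rho = 0.31 (adjusted exact p = 0.563), and r = -0.19 without the farthest 2. Differences between the r of pairs were not tested. Myh4 and Myh2 gave r = 0.66 (adjusted exact p = 0.118) and rho = 0.29 (adjusted exact p = 0.563), which became r = -0.34 without the farthest 2 and so rested on these libraries. With values centred on the mean of each genotype, the 3 pairs that had passed were again below the threshold (Myh4 and Myh1 r = 0.79, Myh2 and Myh7 r = 0.89, Myh1 and Myh2 r = 0.82, adjusted permutation p = 0.0374 each). Myh4 and Myh7 then gave r = 0.48 and Myh4 and Myh2 r = 0.64 (adjusted permutation p = 0.256 and 0.0842). Centring ties the values within a genotype, so permutation over all 8 libraries is not exact for centred values, and these p-values are approximate.

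The remaining pairs did not pass the threshold with the genotypes pooled. Centred on the mean of each genotype, 3 of them fell below it by the approximate permutation p: Myh1 and Myh7 (r = 0.86, adjusted permutation p = 0.0374), Myh6 and Myh7 (r = 0.80, adjusted permutation p = 0.0447) and Myh7 and Myh7b (r = 0.76, adjusted permutation p = 0.0447). The pooled values follow. Myh1 and Myh7 gave r = 0.67 (adjusted exact p = 0.117) and rho = 0.79 (adjusted exact p = 0.0628), with r = 0.41 without the farthest 2. Myh6 and Myh7, which adjoin on chromosome 14 and share the 245-base run printed above, gave r = 0.79 (adjusted exact p = 0.0745) and rho = 0.83 (adjusted exact p = 0.0628), with r = 0.65 without the farthest 2. Myh7 and Myh7b gave r = 0.74 (adjusted exact p = 0.0745) and rho = 0.76 (adjusted exact p = 0.0662), with r = 0.67 without the farthest 2. The developmental genes Myh3 and Myh8 gave r = -0.18 (adjusted exact p = 0.688) and rho = -0.14 (adjusted exact p = 0.752), with r = -0.23 without the farthest 2. Reads that cannot be assigned to one copy can make close copies vary together, and this was not tested.

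**Figure D4:**
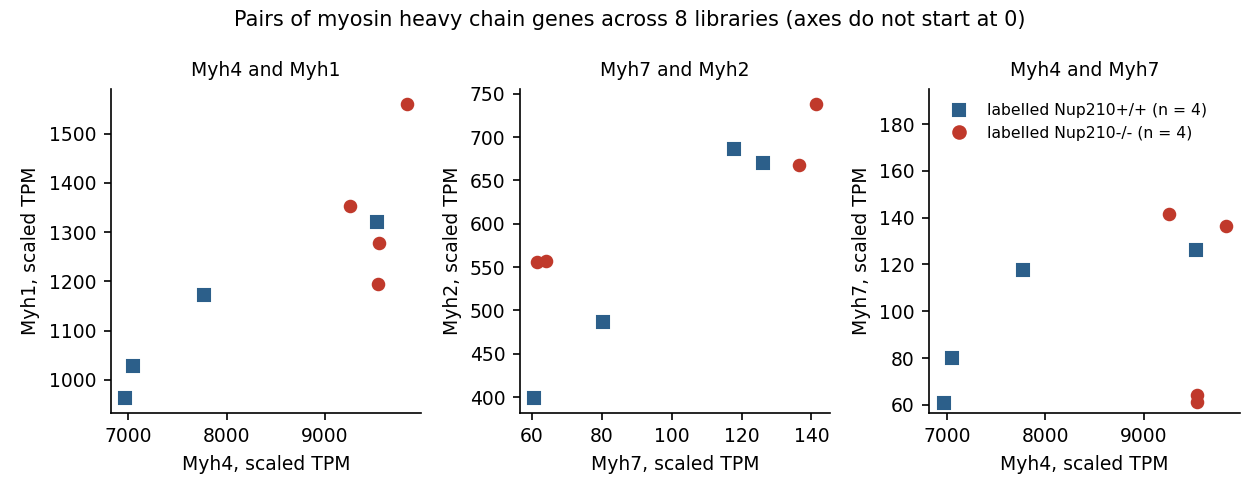
Scaled TPM of Myh1 against Myh4, Myh2 against Myh7 and Myh7 against Myh4 in 8 libraries (squares, labelled Nup210+/+; circles, labelled Nup210-/-; axes do not start at 0). The first 2 panels rise together (r = 0.88 and 0.84 on the log2 scale), while in the last (r = 0.33) 2 libraries labelled Nup210-/- combine high Myh4 with low Myh7.

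The genes outside the family whose pattern was most like that of a member are given by Pearson's r of log2(scaled TPM + 1) over the same 8 libraries, among 6081 genes with a mean of at least 10 TPM, as a description with no test, since these values share libraries and scaling. For Myh7 they were Tnnt1 (slow troponin T, r = 0.98), Atp2a2 (the slow calcium pump, r = 0.97) and Csrp3 (muscle LIM protein, r = 0.97), each of which belongs to the list of slow fiber genes. For Myh4 they were Suox (sulfite oxidase, r = 0.98), Kcna7 (a voltage-gated potassium channel, r = 0.98) and Rab10 (a small GTPase, r = 0.98). For Myh1 they were Acadm (medium-chain acyl-CoA dehydrogenase, r = 0.98), Ubac1 (r = 0.98) and Gbas (r = 0.97). For Myh2 they were Rgl2 (r = 0.99), Adck3 (a kinase-like protein of coenzyme Q synthesis, r = 0.95) and H19 (an imprinted noncoding RNA, r = 0.95). Of 13 slow fiber genes, 10 had r above 0.8 with Myh7, against 0.942% of all genes tested, and 0 of 13 fast fiber genes did. Of the 13 fast fiber genes, 5 had r above 0.8 with Myh4, against 5.40% of all genes tested, and 0 of 13 slow fiber genes did.

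The lists of contractile partners differed in sign between fast and slow. All 13 fast fiber genes had estimates above 0, with a median log2 fold change of 0.16, and 0 passed an adjusted p of 0.05 in limma. The largest was Mylk2 (skeletal myosin light chain kinase, 0.37, limma adjusted p = 0.0592) and the smallest Casq1 (fast calsequestrin, 0.03, limma adjusted p = 0.870). Of 13 slow fiber genes, 12 had estimates below 0, with a median of -0.17, and 0 passed. They ran from Pln (phospholamban, -0.32, limma adjusted p = 0.483) to Myl6b (a slow myosin light chain, 0.16, limma adjusted p = 0.640). Under the other scalings 12 of 13 slow genes were below 0 in each. Of the fast genes, 9 of 13 were above 0 on TPM as deposited and 5 of 13 with scaling to the skeletal muscle markers. These scalings also moved the median of all genes, to -0.08 and -0.16. Under every scaling 13 of 13 fast genes and 1 of 13 slow genes lay above that median. The skeletal muscle markers themselves had 5 of 5 estimates above 0 with the median-of-ratios scaling (median 0.16, Des 0.24 and Mb 0.07). When a library was left out, the slow median ran from -0.33 without Nup210+/+ replicate 2 to -0.01 without Nup210-/- replicate 3, and as many as 6 of 13 slow genes had estimates above 0 (without Nup210-/- replicate 1). Without Nup210+/+ replicate 4 the slow median was -0.05. The fast median ran from 0.10 with 11 of 13 above 0, without Nup210+/+ replicate 3, to 0.22 without Nup210+/+ replicate 4. With both Nup210+/+ replicates 2 and 3 left out, the fast median was 0.05. Of the 13 fast genes, 9 were then above 0 and 9 above the median of all genes. The slow median was -0.44 in that fit, with 12 of 13 below 0. The estimate of Myh7 itself was 0.02 with all 8 libraries.

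**Figure D5:**
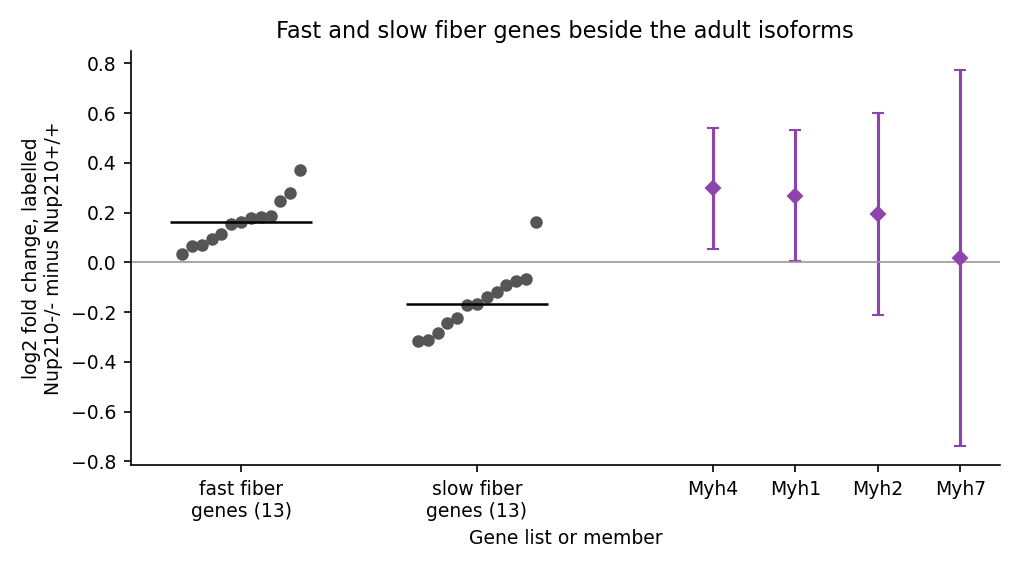
Log2 fold change, libraries labelled Nup210-/- minus Nup210+/+, of 13 fast and 13 slow fiber genes (points in order of size, line at the median) beside the 4 adult myosin heavy chains (diamonds with 95% confidence intervals). Fast genes lie above 0 with a median of 0.16, slow genes mostly below 0 with a median of -0.17, and none of them passed the limma threshold. On scaling to the skeletal muscle markers 5 of 13 fast genes lay above 0, and 13 of 13 lay above the median of all genes, which was then -0.16.

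Among 13 thick filament partners and myosin chaperones, 10 had estimates above 0 with a median of 0.09 (6 on TPM as deposited and 5 with scaling to the skeletal muscle markers), and 1 passed the test. Above the median of all genes lay 10 on TPM as deposited and 9 with scaling to the skeletal muscle markers. Without Nup210+/+ replicate 4 that median was 0.18. Hsp90aa1, the inducible cytosolic Hsp90 that helps fold the myosin head, fell by 0.98 on the log2 scale (SE 0.139, limma adjusted p = 0.0497) from 130.6 ± 28.0 to 60.7 ± 5.89 TPM (SD, n = 4 each), a call made in 7 of 21 alternatives and in 0 of the 8 fits that left out a library. Over these alternatives its estimate ran from -1.16 to -0.85 and its limma adjusted p from 0.0133 to 0.232. Hsp90ab1, another cytosolic Hsp90 on the list, was at 581.5 ± 30.4 against 614 ± 39.2 TPM (SD, n = 4 each; log2 fold change 0.02, limma adjusted p = 0.938). Unc45b (-0.02) and Smyd1 (0.07) did not pass either (limma adjusted p = 0.908 and 0.535). The largest estimate was that of Trim63, the ubiquitin ligase MuRF1 (0.32, limma adjusted p = 0.235). Among 10 genes of regenerating fibers, 7 could be tested and 0 passed, with estimates from Myog (myogenin, -0.27, limma adjusted p = 0.470) to Cdh15 (M-cadherin, 0.33, limma adjusted p = 0.172). Their median was -0.20 with 3 of 7 above 0, and it was 0.03 with 4 of 7 above 0 without Nup210+/+ replicate 4. The genes of membrane fusion, Mymk and Mymx, and Chrng were below the filter. On average they were at 0.24, 0.31 and 0.1075 TPM in the libraries labelled Nup210-/-. In those labelled Nup210+/+ they were at 0.1875, 0.175 and 0.045 TPM. Among 15 fiber type regulators 0 passed, and 10 had estimates above 0 with a median of 0.04. The number above 0 was 6 on TPM as deposited and 4 with scaling to the skeletal muscle markers, with 9 above the median of all genes in each. Without Nup210+/+ replicate 2 the number above 0 was 8, with a median of 0.0016. The extremes were Mef2d (0.27, limma adjusted p = 0.112), whose family binds the motif shown above, and Esrrg (a nuclear receptor acting on oxidative genes, -0.29, limma adjusted p = 0.350). Of the other class II myosin heavy chains, Myh10, the nonmuscle IIB chain, did not overlap between the genotypes. Myh10 was at 8.79 ± 1.03 against 15 ± 1.72 TPM (log2 fold change -0.62, limma adjusted p = 0.0760). Myh13, the extraocular chain of the chromosome 11 cluster, had a log2 fold change of 0.08 (limma adjusted p = 0.871).

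Noncoding transcripts of the myosin loci, chosen after their values were seen and matched by Ensembl identifier, were compared last. The antisense transcript Gm12300 (Myhas in GENCODE M21, chr11:67211256-67237573, minus strand) starts just upstream of Myh4 and ends inside Myh1. It was at 87.1, 89.2, 102.4 and 94.4 TPM in the libraries labelled Nup210-/- and at 107.2, 118.5, 103.6 and 94.1 TPM in those labelled Nup210+/+. The genotypes overlapped, and the log2 fold change was -0.08 (limma adjusted p = 0.639). The lincRNA 2310065F04Rik between Myh3 and Myh2 (chr11:67112461-67120080, minus strand) was at 34.2 ± 2.52 against 40.3 ± 4.64 TPM (SD, n = 4 each), with a log2 fold change of -0.13 (limma adjusted p = 0.652). The antisense transcript 9430073C21Rik at Myh2 was at 7.54 ± 1.17 against 6.31 ± 2.58 TPM (SD, n = 4 each), with overlap between the genotypes and a log2 fold change of 0.36 (limma adjusted p = 0.544). Mhrt, antisense at Myh7, was listed at 0 in all 4 libraries labelled Nup210-/- and at 0 to 0.57 TPM in those labelled Nup210+/+. The miRNA genes of the slow and cardiac loci, Mir208a in Myh6, Mir208b in Myh7 and Mir499 in Myh7b, were listed at 0 in every library, in which poly(A) RNA was selected.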

How the data were processed

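Quad RNA was selected for poly(A), made into directional libraries and sequenced from one end. The authors trimmed reads with cutadapt 2.3, aligned them to mm10 with STAR 2.7.0d and deposited TPM estimated per gene with RSEM 1.3.1, without pooling. Estimated counts were not used here, so read depth is unknown, no counting interval could be given, and the count-based test of the study was replaced by limma.

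TPM were divided by median-of-ratios factors over 15225 genes above 0 in all libraries. The 14229 genes with a mean of at least 0.5 TPM were fitted as log2(scaled TPM + 1) with limma 3.58.1 in R 4.3.3 (eBayes with trend, genotype as the only term, Benjamini-Hochberg over all genes). Fold changes on this scale understate those of low genes. Single values were compared by two-sided exact permutation over 70 labelings. The fit was tested on simulated data. No pair of libraries held the same TPM in more than 201 of the tested genes.

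Members and gene lists were chosen with earlier results of these data known. Named were all members, in each list the largest and smallest estimate and every gene past the threshold, and the 3 genes most like each member with a mean of at least 10 TPM. Other names were chosen after their values were seen. List symbols were matched to older symbols by Ensembl identifier. Same-numbered libraries of the genotypes did not deviate together (r from -0.03 to 0.09). Alternatives were pseudocounts, filters, scalings, library weights, eBayes without trend, the replicate number as a block, denominators of the shares, and each library left out.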

Additional observations from a re-analysis of the deposited data

How the results depend on the processing

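The count of members past an adjusted p of 0.05 in limma was 0 under all 21 alternatives, and the lowest adjusted p of a member was 0.0704 (Myh4 without Nup210+/+ replicate 4). At an unadjusted p under 0.05 the reported fit had 3 members and the alternatives 0 to 4: 0 without Nup210-/- replicate 4, without Nup210+/+ replicate 2, without Nup210+/+ replicates 2 and 3 and with scaling to the skeletal muscle markers, and 1 on TPM as deposited, without the eBayes trend and without any one of Nup210-/- replicate 2 and Nup210+/+ replicates 1 and 3 (Myh4 in each), and with every gene above 0 TPM (Myh14). The fit with the replicate number as a block, which is only a number here, called 0 of all genes, with a lowest member adjusted p of 0.297 (Myh1). In limma the block changed no call on a member. In the shares the block gave exact p = 0.75 for Myh4, 1 for Myh1, 0.63 for Myh2 and 0.75 for Myh7. That exact test flips the signs of the differences between same-numbered libraries. With so few pairs it cannot reach 0.05, so it could not have changed a call on a share. Members without overlap of the genotypes numbered 0 to 4 when a library was left out: 1 (Myh4) without Nup210-/- replicate 2, where 14.1% of all genes tested did not overlap, and 4 without Nup210+/+ replicate 4, where 18.4% did not.

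Some signs turned, and the cause was not tested. The estimate of Myh7 was -0.076 on TPM as deposited, -0.018 with scaling without mitochondrial and the 20 highest genes, -0.19 with library weights, -0.16 with scaling to the skeletal muscle markers and -0.38 without Nup210+/+ replicates 2 and 3, and it ran from -0.18 to 0.22 when a library was left out. That of Myh2 was -0.11 without Nup210+/+ replicates 2 and 3. That of Myh3 was 0.027 with a pseudocount of 0.1 and 0.0053 with 0.5, and it ran from -0.080 to 0.096 when a library was left out. With a denominator of all TPM the share difference was 0.0147 points for Myh1 and 0.00338 points for Myh2. When a library was left out, the share difference ran from -0.0125 to 1.15 points for Myh4, from -0.530 to 0.230 for Myh1 and from -0.722 to 0.0393 for Myh2. The r of Myh3 and Myh8 ran from -0.74 to 0.51.

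The 2 alternatives that leave out Nup210+/+ replicates 2 and 3 or scale to the skeletal muscle markers were added after the data were seen. The number of genes called over the whole table ran from 0 to 84 across settings, 16 as reported. Because depth is unknown, values near 0.5 TPM carry an unknown counting error.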
